A study of Mus musculus with 4 samples.

Results

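Transcripts of 10 early response genes other than the AP-1 subunits were followed in 4 RNA sequencing libraries of cultured mouse cells, 2 treated with the solvent DMSO and 2 with daidzein, a soy isoflavone. The genes were Egr1, Egr2, Egr3, Ier2, Ier3, Zfp36, Btg2, Nr4a1, Dusp1 and Rgs2, which are 10 of the 55401 genes in the deposited count table, each on 1 row. They were chosen by gene symbol, at a time when their daidzein and DMSO counts in these libraries were already known. The differences between the groups are therefore given for these genes as a description, and no test result printed for them is read as support. The labels call the cells female germline stem cells from the ovary of C57BL/6 mice, in the same growth-factor medium in both groups. Neither the dose and duration of daidzein nor the number of separate cultures behind the replicates is given in the sources used here.

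Early response genes are transcribed within minutes when a growth factor, stress or calcium signal reaches the nucleus, before any protein has to be made. The signal runs through kinase cascades to factors already bound at their promoters. SRF with its ETS partners sits on the CArG box of the serum response element, and CREB sits on the cAMP response element (CRE). The products are transcription factors, brakes on the signal, and proteins that destroy other mRNAs, and the early mRNAs themselves are short-lived, often through AU-rich sequences in their 3′ untranslated regions.

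The promoters of 4 of the genes with the CArG box, the CRE or its core are shown. Those of Egr2 and Btg2, which also carry such sites, are not printed. RefSeq windows on GRCm38.p6 were held for 7 of the 10 genes (not Egr1, Egr3 or Ier2), and each window runs from 250 bases before a RefSeq start to 50 bases after it. The bases before the start are printed on the gene's own strand. Capitals mark matches on either strand to the CArG box, the CRE (TGACGTCA), the CRE core TGACG, the site GCGNGGGCG of the Egr proteins, the NF-kB site (searched by its consensus) and the AP-1 site TGANTCA. A core inside a whole CRE was counted under both names. Zfp36 lies at chr7:28379229-28379478 on the minus strand, Dusp1 at chr17:26508473-26508722 on the minus strand, Nr4a1 at chr15:101266596-101266845 on the plus strand and Rgs2 at chr1:144004150-144004399 on the minus strand.
Zfp36: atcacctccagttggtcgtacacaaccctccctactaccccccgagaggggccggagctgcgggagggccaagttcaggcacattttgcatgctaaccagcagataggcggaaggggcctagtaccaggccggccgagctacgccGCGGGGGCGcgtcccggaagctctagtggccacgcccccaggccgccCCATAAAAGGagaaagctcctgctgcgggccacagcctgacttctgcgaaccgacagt
Dusp1: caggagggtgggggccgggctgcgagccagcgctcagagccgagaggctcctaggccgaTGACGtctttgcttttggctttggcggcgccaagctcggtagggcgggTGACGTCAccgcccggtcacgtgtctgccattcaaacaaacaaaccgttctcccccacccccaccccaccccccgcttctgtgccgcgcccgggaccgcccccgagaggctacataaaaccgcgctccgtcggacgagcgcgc
Nr4a1: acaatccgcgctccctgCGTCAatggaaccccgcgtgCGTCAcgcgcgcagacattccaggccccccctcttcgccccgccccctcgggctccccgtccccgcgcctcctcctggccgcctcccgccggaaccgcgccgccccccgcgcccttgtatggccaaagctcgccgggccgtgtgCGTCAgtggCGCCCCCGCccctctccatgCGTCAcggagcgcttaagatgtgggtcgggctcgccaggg
Rgs2: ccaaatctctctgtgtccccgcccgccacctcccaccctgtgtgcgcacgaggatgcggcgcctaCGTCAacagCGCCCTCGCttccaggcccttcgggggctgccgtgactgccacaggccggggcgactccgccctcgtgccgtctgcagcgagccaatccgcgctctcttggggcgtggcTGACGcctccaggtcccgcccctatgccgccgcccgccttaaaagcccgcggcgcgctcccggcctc

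The CArG box of Zfp36 began 58 bases before the start, and the whole CRE of Dusp1 began 143 bases before it. Nr4a1 held 4 CRE cores, the nearest beginning 40 bases before the start. Rgs2 held 2. Among the 7 genes with windows, a CArG box was found for 2 (Egr2 and Zfp36), a whole CRE for 2 (Btg2 and Dusp1) and a CRE core for 5. A gene was counted if any of its windows held the match, and Egr2 had several windows, some overlapping. The shares that follow are of single windows, so they are not an exact reference for these counts. In all 32851 promoter windows of this length the CArG box occurred in 1.63%, the whole CRE in 1.79% and the core in 20.8%. The Egr site was found for 4 of the 7 genes and in 5.55% of all windows, and the SP1 site GGGCGG, which is not capitalised, for 7 of 7 and in 35.7%. The AP-1 letters were in 0 of the 7 genes' windows and in 7.81% of all windows, and the NF-kB consensus in 0 of 7 and in 1.47%. These matches describe the letters only.

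Stretches of 3′ untranslated region with the heptamer TATTTAT are shown next, because this is the core of the AU-rich sequences that the Zfp36 protein, tristetraprolin, binds. The heptamer is in capitals, with up to 10 bases of the GENCODE M21 transcript on each side, and the number is its first base counted from 1 after the stop codon.
Ier3 at 182: gtctaattaaTATTTATgtatttatgt
Zfp36 at 575: gtgggcccttTATTTATgacgacttta
Dusp1 at 104: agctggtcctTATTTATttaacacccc
Btg2 at 103: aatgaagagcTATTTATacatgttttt

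Ier3 carried 4 of these heptamers in a 3′ untranslated region of 613 bases, Zfp36 carried 3 in 774 bases and Dusp1 carried 3 in 690 bases. Btg2 carried 1, in 2199 bases, and the other 6 genes carried 0. Of the 10265 protein-coding genes tested here with an annotated 3′ untranslated region, 29.8% held at least 1 heptamer and 3.89% held at least 3. Among the 3961 of them with fewer than 800 bases there, 0.379% held at least 3. The 10 genes are also compact. Their longest coding transcripts had 1 to 8 exons with a median of 2, against a median of 9 over the tested coding genes, and 8 of the 10 had 4 or fewer, against 19.7%. The stretch of genome from first to last exon had a median of 4136 bases, against 21536. The spliced transcripts were of more usual length, with medians of 2766 and 3120 bases.

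The 10 genes differed greatly in level, and 7 of them exceeded a mean of 1 FPKM, the authors' read count scaled to gene length and library total. On that per-length scale Ier3 was the highest, at 75.03 to 118.16 FPKM over the 4 libraries. Ier2 followed at 53.13 to 67.47, Rgs2 at 22.16 to 29.42, Egr1 at 10.48 to 16.26 and Nr4a1 at 3.97 to 4.81. Dusp1, at 2.13 to 3.29 FPKM, and Zfp36, at 2.02 to 3.09, were neighbours whose ranges overlapped. Egr2 at 0.07 to 0.22, Egr3 at 0.03 to 0.06 and Btg2 at 0 to 0.02 FPKM were barely detected, and no other neighbours in this order overlapped. The low end of the order rests on few reads, 34 in all for Egr2, 11 for Egr3 and 1 for Btg2.

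**Figure D1:**
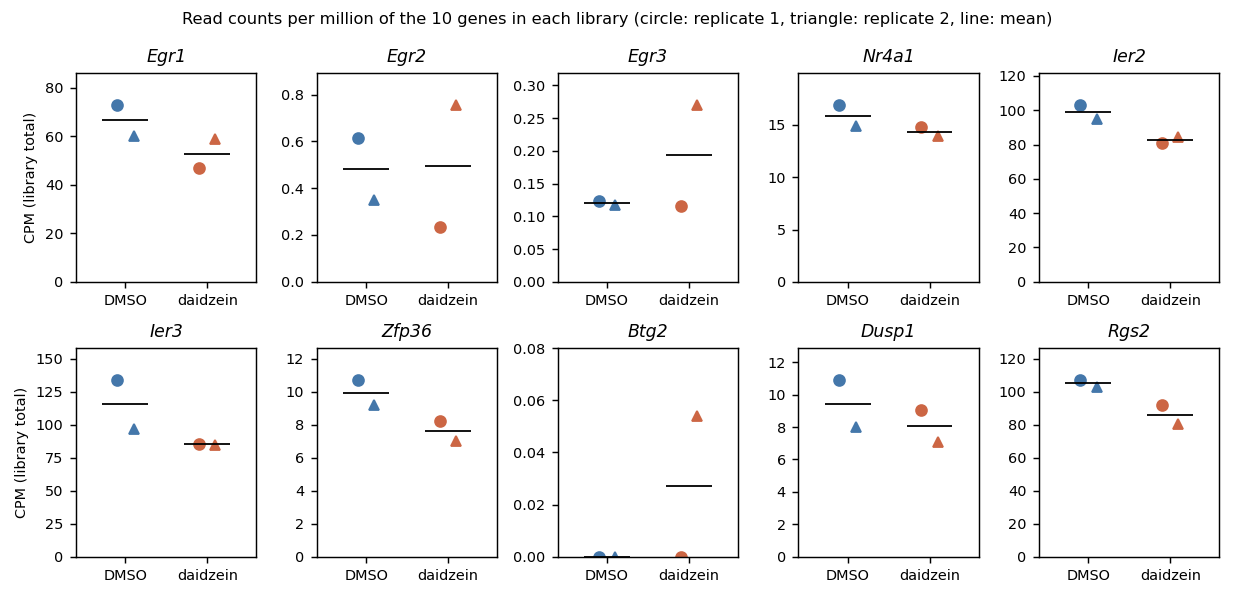
Level in CPM, the count scaled to the library total (vertical axis), of each gene in the DMSO and daidzein libraries, with circles for replicate 1, triangles for replicate 2 and a line at the mean of the group. In Egr1, Nr4a1, Ier2, Ier3, Zfp36 and Rgs2 both DMSO libraries lie above both daidzein libraries, and Egr2, Egr3 and Btg2 sit below 1 CPM.

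Summed over the 10 genes, the scaled reads were fewer with daidzein. The sum was 455 CPM in DMSO replicate 1 and 388 in DMSO replicate 2, and 338 and 337 CPM in the daidzein libraries, CPM being the count scaled to the library total. Without Ier3 it was 322 and 291 CPM with DMSO and 252 in each daidzein library. Both sums were lower in both daidzein libraries. In 6 of the 10 genes both DMSO libraries stood above both daidzein libraries, in 0 of 10 both daidzein libraries stood above, and in 4 of 10 the groups overlapped. Over the 11700 genes tested, 15.2% had both DMSO libraries above and 14.5% had both daidzein libraries above. Since the genes were chosen with this contrast in view, nothing is read from that difference. In such bulk samples fewer cells that express a gene and less RNA per cell cannot be told apart.

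The transcription factors of the group are the 3 Egr zinc-finger proteins, which bind GC-rich promoter sites, and Nr4a1, an orphan nuclear receptor whose activity follows its own abundance. Egr1 (ENSMUSG00000038418; GRCm38 chromosome 18, 34859823 to 34864984, plus strand, 2 exons) gave 1183 and 1033 reads with DMSO and 808 and 1088 with daidzein. This was 72.9 and 60.3 CPM against 47.0 and 58.7 CPM. The daidzein libraries were both lower, but daidzein replicate 2 lay close to DMSO replicate 2. The means were 66.6 ± 8.87 and 52.8 ± 8.27 CPM (SD, n = 2 each), a level 20.7% lower with daidzein, and the replicates of each group lay nearly as far apart as the means.

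Nr4a1 (ENSMUSG00000023034; chromosome 15, 101254269 to 101274795, plus strand) stood at 16.9 and 14.9 CPM with DMSO and 14.8 and 13.9 with daidzein. DMSO replicate 2 and daidzein replicate 1 were almost level, so the groups only just separated. The means were 15.9 ± 1.4 and 14.3 ± 0.605 CPM (SD, n = 2 each), 9.71% lower with daidzein, the smallest gap among the 7 better expressed genes. Egr2 (ENSMUSG00000037868; chromosome 10, 67535475 to 67542188, plus strand) had 10 and 6 reads with DMSO and 4 and 14 with daidzein. Its lowest and highest libraries were both daidzein libraries, and pooling each group gave a daidzein to DMSO ratio of 1.05 (95% exact binomial interval 0.505 to 2.20, counting error only). Egr3 (ENSMUSG00000033730; chromosome 14, 70077203 to 70082614, plus strand) had 2 and 2 reads against 2 and 5, too few to show a difference at this depth.

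Ier2 and Ier3 were the most abundant of the 10 genes per length, in FPKM. Ier2 encodes a small nuclear protein of a gene with no intron, and Ier3 a short stress-inducible protein tied to cell survival. Ier2 (ENSMUSG00000053560; chromosome 8, 84661331 to 84662854, minus strand) gave 103 and 95.1 CPM with DMSO and 81.0 and 84.3 CPM with daidzein. The groups were apart by more than the replicates of either group differed. The means were 99.0 ± 5.47 and 82.6 ± 2.33 CPM (SD, n = 2 each), 16.5% lower with daidzein.

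Ier3 (ENSMUSG00000003541; chromosome 17, 35821684 to 35822923, plus strand, 2 exons), the gene with the AU-rich sequence printed first above, gave 2169 and 1660 reads with DMSO and 1470 and 1573 with daidzein. The CPM were 134 and 97.0 against 85.5 and 84.9. DMSO replicate 1 stood far above the other 3 libraries, while the daidzein libraries were nearly identical. The means were 115 ± 25.9 and 85.2 ± 0.458 CPM (SD, n = 2 each), 26.1% lower with daidzein, the largest relative gap among the 7 better expressed genes. On the log2 scale of edgeR the difference was -0.44, and -0.18 without DMSO replicate 1.

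Zfp36 and Btg2 act on mRNA decay: tristetraprolin recruits the deadenylase complex to AU-rich mRNAs, and Btg2 is an antiproliferative partner of the same complex. Zfp36 (ENSMUSG00000044786; chromosome 7, 28376784 to 28380253, minus strand) had 174 and 157 reads with DMSO and 141 and 130 with daidzein, or 10.7 and 9.17 CPM against 8.20 and 7.01. The DMSO libraries were the 2 highest. The means were 9.95 ± 1.10 and 7.61 ± 0.840 CPM (SD, n = 2 each), 23.5% lower with daidzein. The antisense gene Gm44710 overlaps 125 bases of its exons and had at most 2 reads in a library. Btg2 (ENSMUSG00000020423; chromosome 1, 134075170 to 134079120, minus strand) had a single read, from daidzein replicate 2. The other 3 libraries had 0, which allows up to 0.174 to 0.185 CPM. No annotated gene overlaps Btg2.

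Dusp1 and Rgs2 damp the signals that induce them. Dusp1 is the phosphatase that removes phosphate from MAP kinases, and Rgs2 speeds the shut-off of Gq proteins behind receptors. Rgs2 (ENSMUSG00000026360; chromosome 1, 143999338 to 144004161, minus strand) gave 107 and 103 CPM with DMSO and 91.7 and 80.4 CPM with daidzein. The DMSO libraries were close to each other and both higher. The means were 105 ± 2.93 and 86.1 ± 8.03 CPM (SD, n = 2 each), 17.8% lower with daidzein.

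Dusp1 (ENSMUSG00000024190; chromosome 17, 26505590 to 26562128, minus strand) had 177 and 137 reads with DMSO and 155 and 131 with daidzein, or 10.9 and 8.0 CPM against 9.02 and 7.07. The groups overlapped, with replicate 1 above replicate 2 in both. The means were 9.45 ± 2.05 and 8.04 ± 1.38 CPM (SD, n = 2 each), 14.9% lower with daidzein, less than the spread of the DMSO pair. Its exons share 11 bases with Ergic1 on the other strand, which is 0.332% of their length. Ergic1 had 2918 to 3243 reads in a library.

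Against the whole table, 8 of the 10 genes had enough reads to test, Egr3 and Btg2 having too few. By edgeR's quasi-likelihood test, 0 of the 8 passed an adjusted p of 0.05, where 2 of 11700 genes (0.0171%) did, the AP-1 subunit genes Fos and Fosb. The lowest adjusted p among the 8 was 0.628, for Ier3. At an unadjusted p under 0.05 the count was 5 of 8, all lower with daidzein (Egr1, Ier2, Ier3, Rgs2 and Zfp36), where 1.62% of all tested genes were. DESeq2 called 0 of the 10 and 0.0102% of its 19575 genes, with 3 of the 10 (Egr1, Ier2 and Rgs2) and 0.240% of all lower at an unadjusted p under 0.05. With limma, trend fitted to log2(FPKM + 1), 0 genes of the table passed, with 5 of the 8 and 2.03% of all lower at an unadjusted p under 0.05. In edgeR the 0 held with library totals only, robust estimation, a floor of 5 CPM or a trend with GC content removed. It did not hold with low counts kept in (Ier3 passed, beside 0.0562% of all genes). With the replicate number fitted as a block, 3 of the 8 passed (Ier2, Ier3 and Rgs2), beside 0.231% of all. With block and GC removal together 4 passed (also Egr1), beside 0.274%. The choice of the genes used this contrast, so these counts describe the genes and support nothing.

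**Figure D2:**
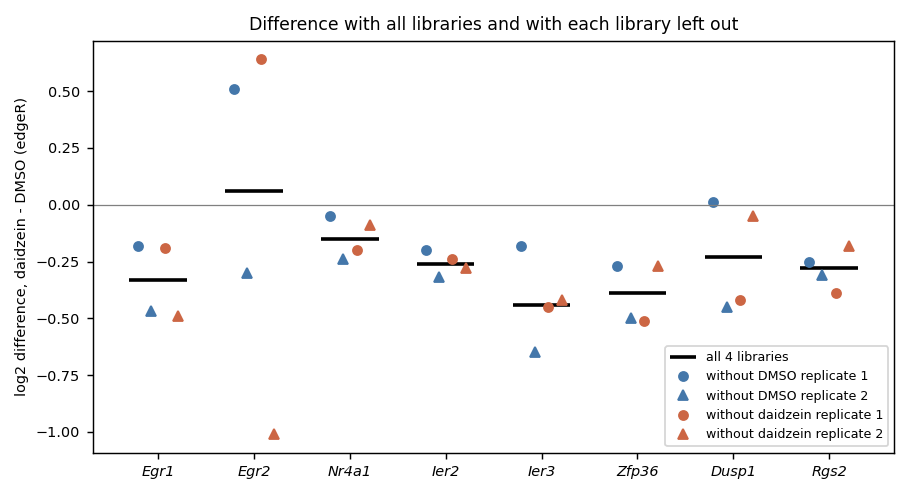
Log2 difference between daidzein and DMSO (vertical axis, edgeR) for the 8 genes with enough reads, as a black bar for all 4 libraries and as points with 1 library left out (blue for a DMSO library, orange for a daidzein library, circle for replicate 1, triangle for replicate 2). Ier2 stays between -0.32 and -0.20, while Ier3 runs from -0.65 to -0.18 and Egr2 from -1.01 to 0.64.

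Single libraries set the size of several of these differences. With each library left out in turn, the log2 difference of Ier2 ran from -0.32 to -0.20 and that of Rgs2 from -0.39 to -0.18. Without daidzein replicate 2, the Rgs2 difference of -0.28 became -0.18. For Egr1 the difference of -0.33 shrank to -0.18 when DMSO replicate 1 was left out and to -0.19 when daidzein replicate 1 was. That of Zfp36, -0.39, stayed between -0.51 and -0.27. For Nr4a1 the difference of -0.15 shrank to -0.05 when DMSO replicate 1 was left out and to -0.09 when daidzein replicate 2 was, and it grew to -0.24 without DMSO replicate 2. Dusp1 went from -0.23 to 0.01 without DMSO replicate 1 and to -0.05 without daidzein replicate 2, but to -0.45 without DMSO replicate 2 and to -0.42 without daidzein replicate 1. Egr2, at 0.06 with all libraries, changed sign with the library left out: leaving out replicate 1 gave 0.51 (DMSO) or 0.64 (daidzein), and leaving out replicate 2 gave -0.30 (DMSO) or -1.01 (daidzein). Of the 8 genes, the 6 other than Egr2 and Dusp1 were lower with daidzein in all 4 of these fits. In these 6 both DMSO libraries stood above both daidzein libraries, so that direction was largely set beforehand and adds no support.

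Replicates of one group also differed among themselves. DMSO replicate 1 was the highest of the 4 libraries in 7 of the 10 genes, where 26.6% of all tested genes had their highest value there. The genes were chosen with the contrast of DMSO and daidzein known, and 2 of the 10 were not tested, so nothing is read from that difference. Of the 7 genes with at least 500 reads in all, the DMSO replicates of 4 (Dusp1, Egr1, Ier2 and Ier3) differed beyond the 95% exact binomial counting interval, against 30.2% of 8932 such genes. For the daidzein replicates it was 3 of 7 (Dusp1, Egr1 and Rgs2), against 27.6%. The largest ratio of DMSO replicate 1 to replicate 2 among them was 1.38 for Ier3 (counting interval 1.29 to 1.47), followed by 1.36 for Dusp1 (1.08 to 1.72) and 1.21 for Egr1 (1.11 to 1.31). With daidzein, Egr1 had a ratio of 0.801 (0.730 to 0.878) and Ier3 of 1.01 (0.938 to 1.08). The replicates of Egr1 thus differed in opposite directions in the 2 groups, while Dusp1 was higher in replicate 1 of both. All genes come from the same 4 libraries and are not independent of each other.

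**Figure D3:**
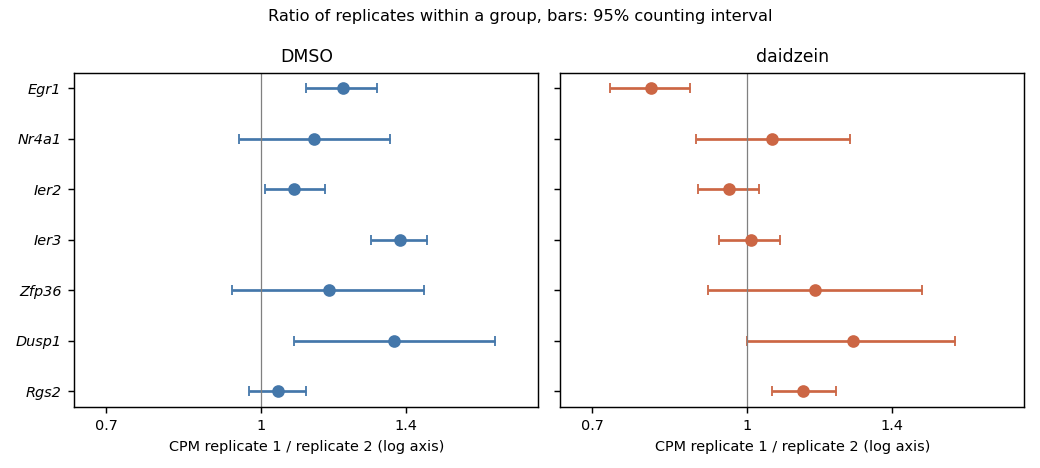
Ratio of CPM in replicate 1 to replicate 2 (horizontal log axis) within the DMSO and the daidzein group for the 7 genes with at least 500 reads, with 95% counting intervals as bars. In the DMSO group all 7 points lie above 1, from 1.04 for Rgs2 to 1.38 for Ier3, while in the daidzein group Egr1 lies below 1 at 0.801 and Ier2 at 0.961.

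The genes whose pattern over the 4 libraries was nearest to the mean pattern of the 8 genes were Bloc1s3, Zfp597, C130036L24Rik, 2810001G20Rik and Gzmb. Likeness was the root mean square distance between log2 values centred on each gene's mean, over 4 libraries and 11692 other genes. The distances ran from 0.0197 for Bloc1s3 to 0.0292 for Gzmb, a granule protease. The mean pattern of the 8 genes on that log2 scale stood at 0.29 and -0.02 for the DMSO libraries and at -0.18 and -0.09 for the daidzein libraries. With 4 points per gene many genes can be close, so this is a description.

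Close relatives of the 10 genes did not share one direction. Of 26 paralogs, 20 were tested, 13 were lower and 7 higher with daidzein, and 0 passed over all genes by edgeR. At an unadjusted p under 0.05 there was 1 of the 20, where 2.91% of all tested genes were in either direction. Their median log2 difference was -0.06, against -0.003 over all genes tested, and it lay between -0.09 (without DMSO replicate 2) and 0.00 (without daidzein replicate 1) with a library left out. Of all 11700 genes tested, 51.3% were lower with daidzein. Rgs18, a platelet member of the Rgs family, was the most abundant, at 255 ± 14.8 CPM in the DMSO and 275 ± 0.719 in the daidzein group (SD, n = 2 each). Rgs1 stood at 172 ± 2.64 and 147 ± 10.6 CPM, and Zfp36l2, a relative of tristetraprolin, at 159 ± 7.43 and 148 ± 1.48. Rgs1 and Rgs2 were thus both lower and Rgs18 was higher in each daidzein library.

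Other early response genes had log2 differences from -0.34 to 0.14. Of 36 listed, 29 were tested, 21 were lower and 8 higher, beside the 51.3% lower over all genes. By edgeR 0 passed over all genes. At an unadjusted p under 0.05 there were 2 (Rhob and Sik1), where 2.91% of all tested genes were in either direction. The median log2 difference was -0.03, but 0.02 without DMSO replicate 1, -0.11 without DMSO replicate 2 and -0.08 without daidzein replicate 2. The 3 most abundant were Ifrd1, at 205 ± 0.438 CPM in the DMSO and 204 ± 6.77 in the daidzein group, the survival gene Mcl1, at 196 ± 2.12 and 189 ± 4.0, and the kinase gene Pim1, at 168 ± 12.1 and 157 ± 1.34 (SD, n = 2 each). All 7 AP-1 subunit genes were tested and lower. By edgeR over all genes 2 fell, Fos at an adjusted p of 0.00551 and Fosb at 0.0177. With Junb, 3 had an unadjusted p under 0.05, and the median log2 difference of the 7 was -0.18. Dropping DMSO replicate 2 made that median -0.38, and dropping DMSO replicate 1 made it -0.10. Fos was at 54.6 ± 12.3 and 29.5 ± 2.46 CPM, Junb at 105 ± 6.21 and 84.6 ± 5.23, and Jund at 118 ± 14.2 and 107 ± 0.278. The fold of Fos was 0.542, beside ratios of 0.739 to 0.903 for the 7 better expressed genes here, a difference that was not tested.

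The kinases and factors that act upstream of early response genes differed little between the groups. Of 25 listed, 24 were tested, 11 were lower and 13 higher, 0 passed by edgeR and 0 had an unadjusted p under 0.05. Their log2 differences ran from -0.09 to 0.08 with a median of 0.01, which was -0.01 without DMSO replicate 1. Rps6ka1, a ribosomal S6 kinase gene, was at 193 ± 3.26 CPM in the DMSO and 197 ± 7.94 in the daidzein group, and the CREB relative Atf1 at 129 ± 8.55 and 124 ± 0.218 (SD, n = 2 each). Transcript counts do not measure the phosphorylation of these kinases.

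Partners of the 10 proteins went either way. Of 18 listed, 17 were tested, 10 were lower and 7 higher, 0 passed by edgeR, 0 had an unadjusted p under 0.05 and the median was -0.02. Dropping DMSO replicate 1 made it -0.04, and dropping DMSO replicate 2 made it 0.01. The methyltransferase gene Prmt1, whose product binds Btg2, was at 876 ± 1.72 CPM in the DMSO and 885 ± 20.9 in the daidzein group (SD, n = 2 each). Ywhaz, a 14-3-3 gene, was at 397 ± 2.05 and 417 ± 14.4, and Cnot1, the scaffold of the deadenylase complex, at 352 ± 38.3 and 341 ± 43.8. Among 16 AU-rich mRNAs known as tristetraprolin targets, 6 had enough reads, 5 were lower and 1 higher, 0 passed by edgeR and 1, Ier3 itself, had an unadjusted p under 0.05. The median was -0.15. Of all genes tested, 51.3% were lower and 2.91% had an unadjusted p under 0.05 in either direction. Ier3 is also 1 of the 10 genes and had the lowest log2 difference of the list, -0.44, so the list is not separate from them. Vegfa was at 46.2 ± 3.56 and 41.2 ± 2.12 CPM and Il6 at 18.1 ± 1.79 and 17.6 ± 2.64. Il2, Il3, Il10 and Il23a had 0 reads in every library.

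Library totals ranged from 16230400 to 18537134 reads. Of 6 germ cell markers, Pou5f1 and Dppa3 had 0 reads in every library and the list summed to 0.117 to 0.431 CPM with DMSO and 0.108 to 0.291 with daidzein, so the defining transcripts of the labelled cell type were at or near 0. Of 9 mast cell markers 5 had a read, with sums of 1365 to 1368 CPM with DMSO and 1394 to 1396 with daidzein. Cpa3 and Kit made up nearly all of these sums, and Tpsab1, Tpsb2, Mcpt4 and Fcer1a were at 0. Of 6 macrophage markers 4 had a read, with sums of 135 to 136 and 121 to 130 CPM, nearly all from Adgre1, and Itgam and C1qa were at 0. Of 11 heat shock and handling genes, 9 were tested, 4 were lower and 5 higher, 0 passed by edgeR, 0 had an unadjusted p under 0.05, the median was 0.00 (-0.04 without daidzein replicate 1), and their sum was 16472 to 16705 CPM with DMSO and 16462 to 17000 with daidzein. Among them the chaperone gene Hsp90ab1 stood at 6940 ± 8.29 and 6955 ± 257 CPM, Hsp90aa1 at 3045 ± 145 and 3180 ± 42.5, and Hspd1 at 2811 ± 34.1 and 2797 ± 24.2 (SD, n = 2 each, DMSO first). The part of the mast cell and macrophage marker sums in the differences of the 10 genes was not tested.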

How the data were processed

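RNA sequencing of 4 libraries was used, 2 per group by the titles. Tools listed in the submitters' processing notes, whose roles are unstated, are DESeq2, HTSeq 0.6.1 and HISAT2 2.0.1, beside mm9 as the genome. The deposited coordinates are those of GRCm38: 99.61% of the 55141 genes matched to GENCODE M21 had the same start. The deposited table holds read counts per gene, not normalized, and FPKM made by the authors from those counts, gene length and library total. Not given in the sources used here is whether counting used strand.

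The genes, the lists and the tests were chosen with earlier results of these data known. Values of single genes are CPM by library totals. Differences were fitted over the whole table with edgeR 4.0.16 in R 4.3.3 (quasi-likelihood test, TMM, default filterByExpr, Benjamini-Hochberg adjusted p of 0.05), a step checked on simulated data. Alternatives used DESeq2 1.42.0, limma 3.58.1, library totals only, other filters, robust estimation, removal of a GC trend, the replicate number as a block, and each library left out. Named genes are the 10 genes, the 3 most abundant of each list other than the marker lists, genes that passed, and the 5 most alike in pattern, except that 1 gene of the upstream list is not reported here; Rhob, Sik1, Gm44710, Ergic1 and the list members at 0 reads or said to carry the most reads of a marker list were named after their values were seen. Counting intervals are 95% exact binomial and, like the floor of 3 counts for a count of 0, cover counting error only. Since no source says that replicates were separate cultures, p-values cover only the variation among these 4 libraries, possibly all technical.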

Additional observations from a re-analysis of the deposited data

How the results depend on the processing

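By edgeR 2 genes passed over the whole table, and 0 of the 10 early response genes. When low counts were kept in, 11 of 19575 genes passed (0.0562%), 1 of them among the 10 (Ier3). A floor of 5 CPM gave 1 gene, and limma trend on FPKM gave 0 with a pseudocount of 1 and 0 with 0.1. Leaving out each library gave 4 to 17 genes and 0 to 2 of the 10 (Ier3 and Egr1). In those fits the remaining library of a pair is taken to scatter as much as the other group's. With the replicate block 27 of 11700 genes passed (0.231%), 3 of them among the 10 (Ier2, Ier3 and Rgs2). With the block and the GC trend removed together 32 passed (0.274%), 4 of them among the 10 (also Egr1). The 10 were chosen with this contrast known, so these counts describe them and support nothing. No source ties same-numbered libraries to one culture or day. Deviations of same-numbered libraries correlated at 0.0916 across genes. By a chi-square per degree of freedom of the counts, however, the same-numbered libraries were the closest of all pairs, at 2.23 for number 2 and 3.51 for number 1, against 4.17 and 4.38 between replicates of one group. With 2 pairs and no label for it, the numbers were treated as names only, and a shared source of same-numbered libraries was not tested. The log2 difference of Egr2, 0.06, was -0.02 by limma with the smaller pseudocount, and omitting single libraries moved it between -1.01 and 0.64 (-0.30 without DMSO replicate 2). That of Dusp1 moved between -0.45 and 0.01. Of 111 recomputed differences with a test, 94 kept direction and side of the threshold, 13 newly passed it and 4 reversed. Of 98 recomputed list medians, 4 differed by more than the spread between replicates, each with 1 library left out. Across the tested genes the log2 difference correlated with transcript GC content at a Spearman coefficient of -0.21. Median GC was 54.2% in the 10 genes and 50.2% in the tested coding genes. With the GC trend removed, the 7 better expressed genes ran from -0.42 (Ier3) to -0.12 (Nr4a1), against -0.44 and -0.15. Among these 7 only the Rgs2 difference grew, from -0.28 to -0.31. The cause of these changes was not tested. Few reads limit what can be said of Egr2, Egr3 and Btg2.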
